A study of Mus musculus with 9 samples.

Results

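Voltage-gated ion channel genes and their relatives were followed in sorted GFP+ cells from the developing mouse cortex. The genes are the rows of the count table whose symbols begin with Kcn, Hcn, Scn followed by a digit, Cacna1, Cacna2d, Cacnb or Cacng, without the antisense RNA Kcnq1ot1 and other antisense models, and with 10 or more counts in 3 or more libraries. Of 138 coding genes with such symbols 94 met the count minimum, out of 53379 gene IDs in the table and 17760 genes tested. They comprise 58 potassium, 9 sodium, 23 calcium and 4 HCN channel genes. The symbols also bring in channels that voltage does not open. Examples are the inward rectifiers (Kcnj), the two-pore domain channels (Kcnk) and the small-conductance calcium-activated channels (Kcnn). The gamma family (Cacng) includes partners of AMPA receptors. The set is therefore wider than voltage-gated channels alone.

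Short hairpin RNAs (shRNAs) were electroporated in utero into the cortex of C57BL/6 embryos at E13.5 (embryonic day), and GFP+ cells were sorted from cortex at E15.5. One group received a mix of 3 shRNAs against the circular RNA circSlc45a4 (circSlc45a4 knockdown), the second a mix of 2 shRNAs against the linear Slc45a4 mRNA (Slc45a4 mRNA knockdown), and the third 1 scrambled shRNA (scramble). Each group had 3 biological replicates, and all 3 groups share the strain, the electroporation, the GFP label and the sort. The number of embryos behind a library, their sex, whether replicates came from separate litters and the promoter of the hairpins are stated in none of the sources used here. The sorted cells are whichever cells took up the plasmid, so the libraries mix progenitors and neurons. In such mixed samples fewer cells of a type and less RNA per cell cannot be told apart. The libraries were polyA selected, and circSlc45a4 itself, which lacks a polyA tail, was not read.

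Voltage-gated channels are membrane pores whose opening depends on the voltage across the membrane. Sodium channels (Scn) and calcium channels (Cacn) let positive charge in when a neuron is excited, potassium channels (Kcn) let it out and restore the resting voltage, and HCN channels pass an inward current when the membrane is hyperpolarized. Most are built from a pore-forming alpha subunit and accessory subunits that set its surface level, gating or partners. In the embryonic cortex the first channels appear before synapses mature. Calcium entry and resting potassium conductance are known there from progenitors and migrating neurons, and the sodium channel subunit Scn3a is known as an embryonic isoform.

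Total counts ranged from 21073174 to 45469298 per library. Values are CPM, read counts scaled to the size of each library with the trimmed mean of M-values, a call is an adjusted p under 0.05 in the quasi-likelihood test of edgeR over all genes, and all 9 libraries share 1 fit. Slc45a4, the targeted gene, stood at 31.4, 33.6 and 34.0 CPM for scramble, 25.4, 25.3 and 24.7 CPM for the circSlc45a4 knockdown libraries and 13.3, 18.5 and 17.4 CPM for the Slc45a4 mRNA knockdown libraries. It fell in the Slc45a4 mRNA knockdown, with log2 fold change -1.01 ± 0.12 (SE, adjusted p = 1.08e-04), and in the circSlc45a4 knockdown, with log2 fold change -0.39 ± 0.12 (SE, adjusted p = 0.0245). The second call ended without any one of scramble replicate 2, 3 or circSlc45a4 knockdown replicate 1, 2, 3 (log2 fold changes of -0.40 to -0.37, adjusted p of 0.0659 to 0.0866), with the level of Xist as a covariate (-0.22, adjusted p = 0.594) and when tested for a change of at least 1.2-fold (adjusted p = 0.206). Xist, which is transcribed from the inactive X chromosome, was read at 0.239, 0.0648 and 0.0617 CPM in scramble, 635, 264 and 428 CPM after circSlc45a4 knockdown and 1549.6, 637 and 0.194 CPM after Slc45a4 mRNA knockdown, and so went in part with the groups. With its level as a covariate, 1165 of the 17760 genes were called in the circSlc45a4 knockdown and 703 in the Slc45a4 mRNA knockdown, against 4814 and 3200 without it. Markers of the cortex were present in every library. The summed level of 8 newborn projection neuron genes was 6066 to 7303 CPM in scramble, 5221 to 5488 with circSlc45a4 knockdown and 5148 to 5588 with Slc45a4 mRNA knockdown, and 3 of the 8 were called lower in each knockdown. That of 9 apical progenitor genes was 782 to 1035, 1336 to 1471 and 847 to 1094 CPM, with 6 and 3 called higher in the circSlc45a4 and the Slc45a4 mRNA knockdown. The 6 deep-layer neuron genes summed to 599.8 to 820.4, 899.7 to 1169.7 and 604 to 810.1 CPM, with 4 called higher in the circSlc45a4 knockdown and 1 in the Slc45a4 mRNA knockdown, and 4 higher in the former than in the latter. The 6 basal progenitor genes summed to 1318 to 1445, 1053 to 1281 and 1277 to 1345 CPM, with 2 and 1 called lower. Inhibitory neuron genes (7 summed) were at 3.20 to 6.98 CPM, 1.72 to 2.77 CPM and 3.16 to 4.80 CPM, and of the 5 tested 3 were called lower in the circSlc45a4 knockdown and 0 in the other. The part of these cell types in the results below was not tested. Sums of these and other markers are given beside some genes below, and need not follow the gene from library to library.

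The first question was which channel genes these cells carried at all. Levels between genes are compared as CPM per kilobase of annotated exon, which takes out the length of the gene model but not the isoform used. In scramble 9 of the 94 genes stood at 10 or more CPM per kb, 53 at 1 or more, and the 10 highest made up 56.6% of the summed level. Genes of the calcium channel beta and gamma families led the order. Cacnb3, a beta subunit that brings the calcium channel pore to the membrane, stood at 49.2, 50.8 and 44.9 CPM per kb in the 3 scramble libraries. Cacng7, a member of the gamma family that includes the partners of AMPA receptors, stood at 47.7, 44.7 and 42.8 CPM per kb, and the ranges of the leading pair overlapped. Cacng4 followed at 22.2 ± 0.913 CPM per kb (mean ± SD, n = 3), below both without overlap.

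Kcnj11, the pore of the ATP-sensitive potassium channel, was the leading potassium channel gene at 21.4, 16.1 and 13.7 CPM per kb in scramble. Kcna3, a delayed rectifier, stood at 13.49 ± 2.44 CPM per kb, and its range overlapped that of Kcnj11. Cacna1h, the T-type calcium channel Cav3.2, was the alpha1 subunit with the highest level (13.0 ± 0.855 CPM per kb). Among sodium channel genes the beta subunit Scn3b led at 5.80 ± 1.53 CPM per kb, followed by the alpha subunit Scn3a at 5.09 ± 0.193, with overlapping ranges. Hcn3 led the HCN genes at 10.46, 10.02 and 8.82 CPM per kb.

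**Figure D1:**
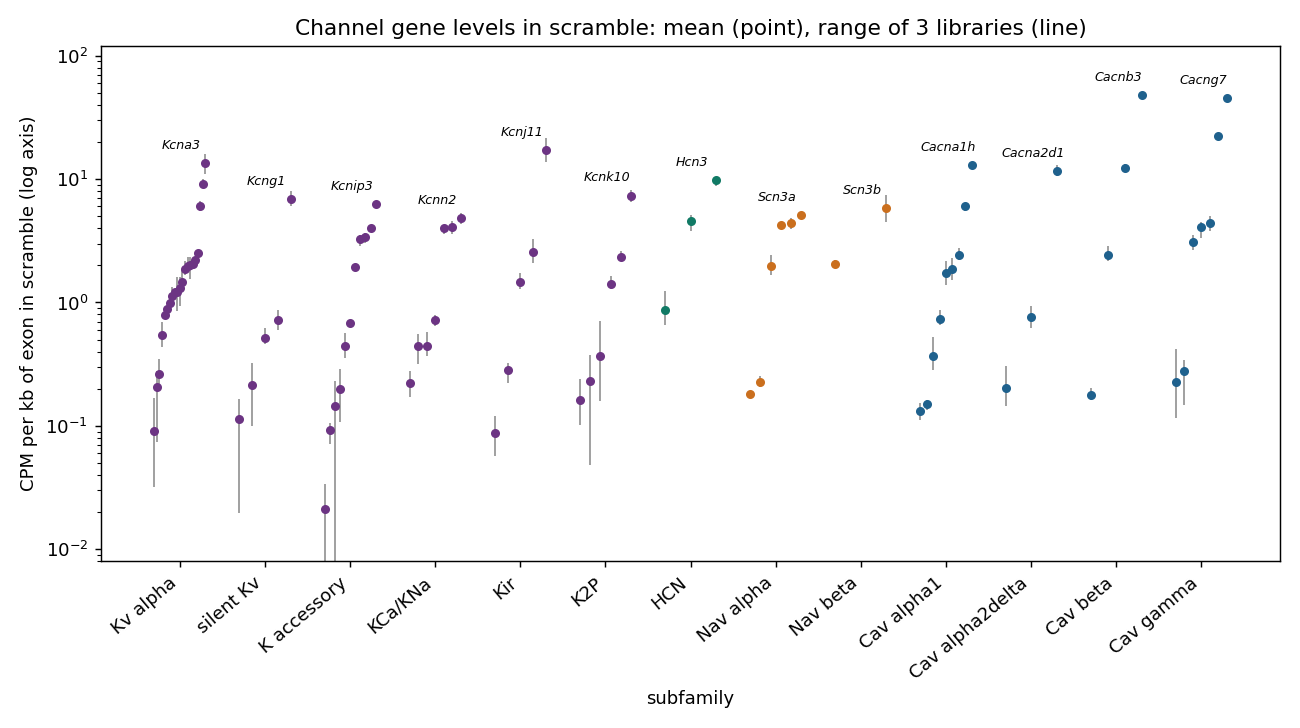
Level of channel genes in scramble, in CPM per kb of exon on a log axis, by subfamily. Points are means and lines the range of 3 libraries. A line that leaves the axis goes to 0 for Kcnmb2 and to 0.00719 for Kcnab1. Colours mark potassium (purple), HCN (green), sodium (orange) and calcium (blue) genes, and the highest gene drawn in each subfamily is named. Cacnb3 and Cacng7 stand highest.

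Against scramble, the circSlc45a4 knockdown had 21 of the 94 genes higher and 17 lower. The background over all 17760 genes was 14.1% higher and 13.0% lower (27.1% in either direction), against 40.4% of the channel genes. Potassium channel genes were mostly called in the upward direction (15 higher and 6 lower of 58), sodium channel genes went both ways (2 higher and 4 lower of 9), and so did calcium channel genes (4 higher and 6 lower of 23), while 1 of the 4 HCN genes was lower. The median log2 fold change was -0.05 over the channel genes and -0.01 over all genes, and the median absolute change was 0.51 against 0.28. The groups did not overlap for 53 of the 94, with a background of 43.9%.

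The Slc45a4 mRNA knockdown had 21 genes higher and 11 lower than scramble. Here the background was 8.92% higher and 9.09% lower (18.0% in either direction), against 34.0% of the channel genes. By family, 15 potassium channel genes were higher and 3 lower, 2 sodium channel genes higher and 3 lower, 4 calcium channel genes higher and 4 lower, and 1 HCN gene was lower. The median log2 fold change was 0.07, against 0.01 over all genes, and the groups did not overlap for 44 channel genes, with a background of 36.1%. Both knockdowns are compared with the same scramble libraries, so their changes are not independent of each other.

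Set directly against each other, the knockdowns differed in 33 channel genes, with 16 higher and 17 lower in the circSlc45a4 knockdown. This is 35.1% of the channel genes, with a background of 13.8% higher and 12.3% lower (26.1% in either direction). Potassium channel genes made up 20 of the 33 (11 higher and 9 lower), sodium channel genes 4 (1 and 3), calcium channel genes 7 (3 and 4) and HCN genes 2 (1 and 1). The groups did not overlap for 43, with a background of 40.1%. The test of each difference is given with the gene below.

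**Figure D2:**
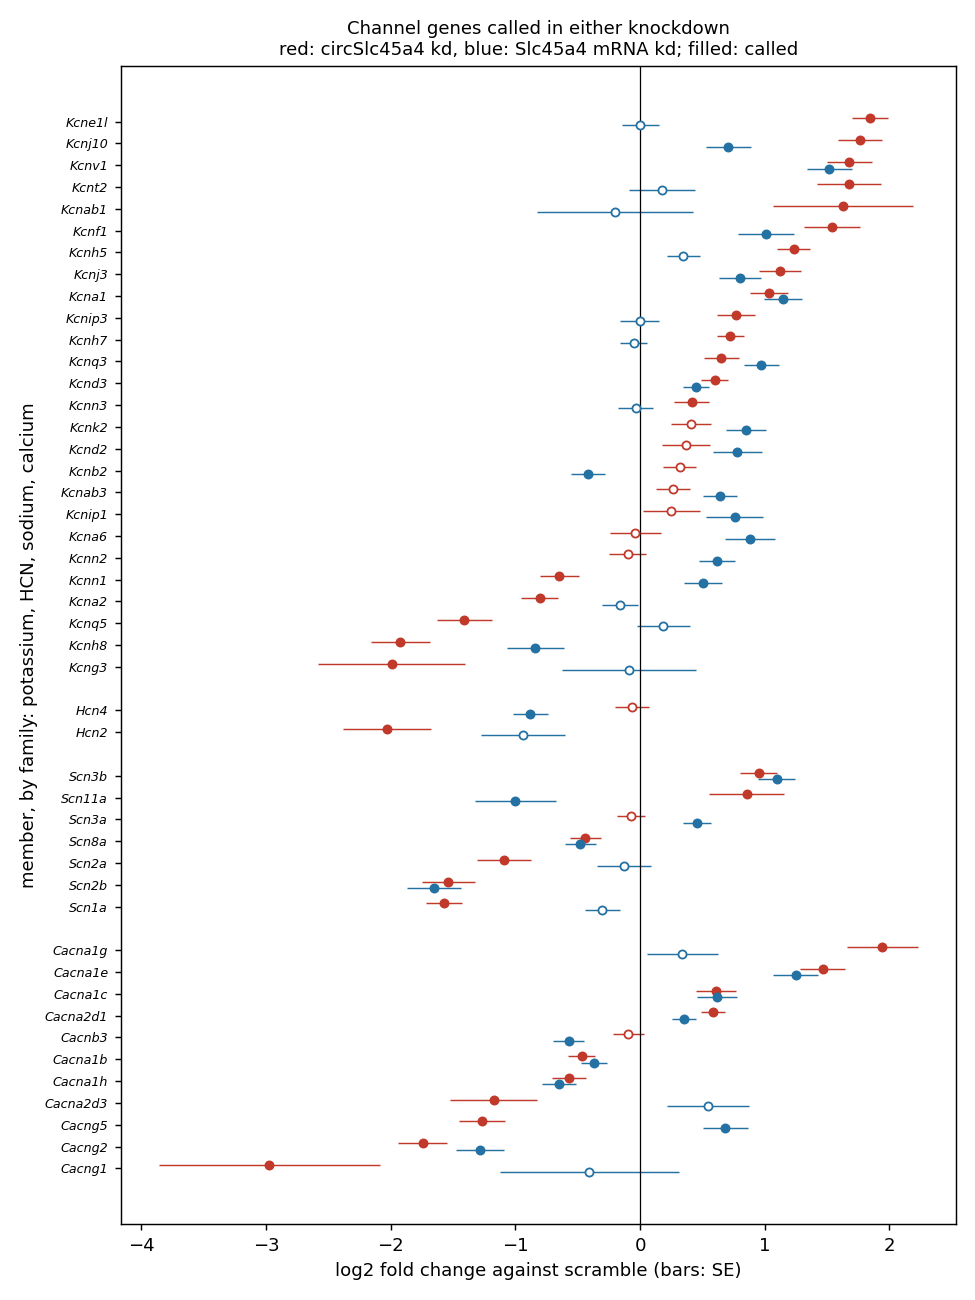
Log2 fold change against scramble of channel genes called in at least 1 knockdown, in blocks for potassium, HCN, sodium and calcium genes. Red is the circSlc45a4 knockdown, blue the Slc45a4 mRNA knockdown, bars are standard errors, and filled points are calls. Cacng5, Kcnn1 and Scn11a have filled points on opposite sides of 0.

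Sodium channel alpha subunits form the pore that carries the rising phase of the action potential. Scn1a (Nav1.1; chromosome 2, 66270778 to 66440840, GRCm38) stood at 49.6, 53.7 and 44.1 CPM for scramble, 15.1, 13.4 and 20.99 CPM for the circSlc45a4 knockdown libraries and 40.9, 40.2 and 38.4 CPM for the Slc45a4 mRNA knockdown libraries. Every library of the circSlc45a4 knockdown lay below those of the other groups. Scn1a fell there from 49.1 ± 4.79 to 16.5 ± 3.97 CPM (mean ± SD, n = 3 each), with log2 fold change -1.57 ± 0.14 (SE, adjusted p = 7.01e-06). In the Slc45a4 mRNA knockdown all 3 libraries also lay below scramble, the log2 fold change was -0.30 ± 0.14 (adjusted p = 0.153), and the gap between the knockdowns was -1.27 ± 0.14 (adjusted p = 5.21e-05).

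The promoters of the changed genes are shown from here on as the 250 bases before the RefSeq start (GRCm38.p6, 5′ to 3′), for 5 genes among the strongest calls whose table entry has a single start. They were chosen after their values were seen. The RefSeq start can differ from that of the GENCODE gene model, whose coordinates are given with each gene. The windows of Scn1a, Scn2b and Kcne1l reach into that model, and the window of Cacng2 lies wholly inside it. Capitals mark matches to the motifs searched on both strands, which were the GC box GGGCGG, the TATA box TATAAA, the E-box CAGCTG, the E-box CAGATG, and TTCAGCACC, a part of the site of REST, a repressor of neuronal genes. The motifs do not contain one another. The pair below is Scn1a (chr2:66440838-66441087, minus strand) and Scn2b (chr9:45117626-45117875, plus strand), the sodium channel genes with the largest falls. Neither holds a match to these letters, and their GC content is 46.8% and 38.4%.
Scn1a: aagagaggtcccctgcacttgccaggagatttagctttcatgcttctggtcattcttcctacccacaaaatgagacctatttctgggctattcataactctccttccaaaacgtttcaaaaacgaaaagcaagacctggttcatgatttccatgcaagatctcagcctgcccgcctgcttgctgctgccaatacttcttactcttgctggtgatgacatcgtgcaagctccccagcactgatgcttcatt
Scn2b: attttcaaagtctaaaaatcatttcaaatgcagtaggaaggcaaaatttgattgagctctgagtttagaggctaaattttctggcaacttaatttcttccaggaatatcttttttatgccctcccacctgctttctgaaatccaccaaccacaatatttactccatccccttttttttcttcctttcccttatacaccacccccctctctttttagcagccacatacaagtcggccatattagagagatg

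Scn2a (Nav1.2), an alpha subunit of early axons, stood at 30.8, 23.3 and 21.2 CPM for scramble, 10.3, 9.57 and 15.3 CPM for the circSlc45a4 knockdown libraries and 16.3, 28.8 and 23.6 CPM for the Slc45a4 mRNA knockdown libraries. It fell in the circSlc45a4 knockdown (-1.09 ± 0.22, adjusted p = 0.00261), without overlap with the other groups, and was read at -0.13 ± 0.22 in the Slc45a4 mRNA knockdown (adjusted p = 0.73). The knockdowns differed by -0.96 ± 0.22 (adjusted p = 0.00614). Scn8a (Nav1.6), the subunit of mature axon initial segments, fell in both knockdowns, at log2 fold changes of -0.44 ± 0.12 and -0.48 ± 0.12, and did not pass the threshold between them (0.04, adjusted p = 0.854).

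Scn3a (Nav1.3) took the other course. At 66.0, 63.0 and 61.3 CPM in scramble and 85.6, 87.4 and 87.9 CPM in the Slc45a4 mRNA knockdown it rose in the latter, with log2 fold change 0.46 ± 0.11 (SE, adjusted p = 0.0122). The circSlc45a4 knockdown libraries, at 55.7, 51.9 and 73.3 CPM, overlapped scramble (-0.07 ± 0.11), and the gap between the knockdowns was -0.53 ± 0.11 (adjusted p = 0.00355). Scn11a (Nav1.9), known from sensory neurons, was low in all groups and split the knockdowns. It was read at 1.05, 1.005 and 1.142 CPM for scramble, 1.95, 1.503 and 2.35 CPM for the circSlc45a4 knockdown libraries and 0.502, 0.539 and 0.554 CPM for the Slc45a4 mRNA knockdown libraries, so that the circSlc45a4 libraries lay above and the Slc45a4 mRNA libraries below all scramble libraries. The direct difference was 1.86 ± 0.31 (adjusted p = 8.84e-04). Scn9a (Nav1.7) read -0.20 in the circSlc45a4 and 0.13 in the Slc45a4 mRNA knockdown, neither past the threshold.

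The beta subunits, single-pass proteins that modulate gating and act in adhesion, moved in opposite directions to each other. Scn2b (chromosome 9, 45117782 to 45130070) stood at 9.32, 10.2 and 8.95 CPM for scramble, 3.49, 3.31 and 3.02 CPM for the circSlc45a4 knockdown libraries and 4.07, 2.89 and 2.10 CPM for the Slc45a4 mRNA knockdown libraries. It fell from 9.50 ± 0.644 CPM to 3.27 ± 0.237 CPM and 3.02 ± 0.992 CPM, with log2 fold changes of -1.54 ± 0.21 (adjusted p = 1.76e-04) and -1.65 ± 0.22 (adjusted p = 2.14e-04). Scn3b (chromosome 9, 40269217 to 40291618) stood at 40.8, 29.9 and 24.3 CPM for scramble, 60.7, 56.6 and 65.5 CPM for the circSlc45a4 knockdown libraries and 60.6, 73.6 and 68.0 CPM for the Slc45a4 mRNA knockdown libraries. It rose by 0.95 ± 0.15 (adjusted p = 4.78e-04) and 1.10 ± 0.15 (adjusted p = 3.13e-04). Neither gene passed the threshold between the knockdowns (0.11 and -0.14).

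**Figure D3:**
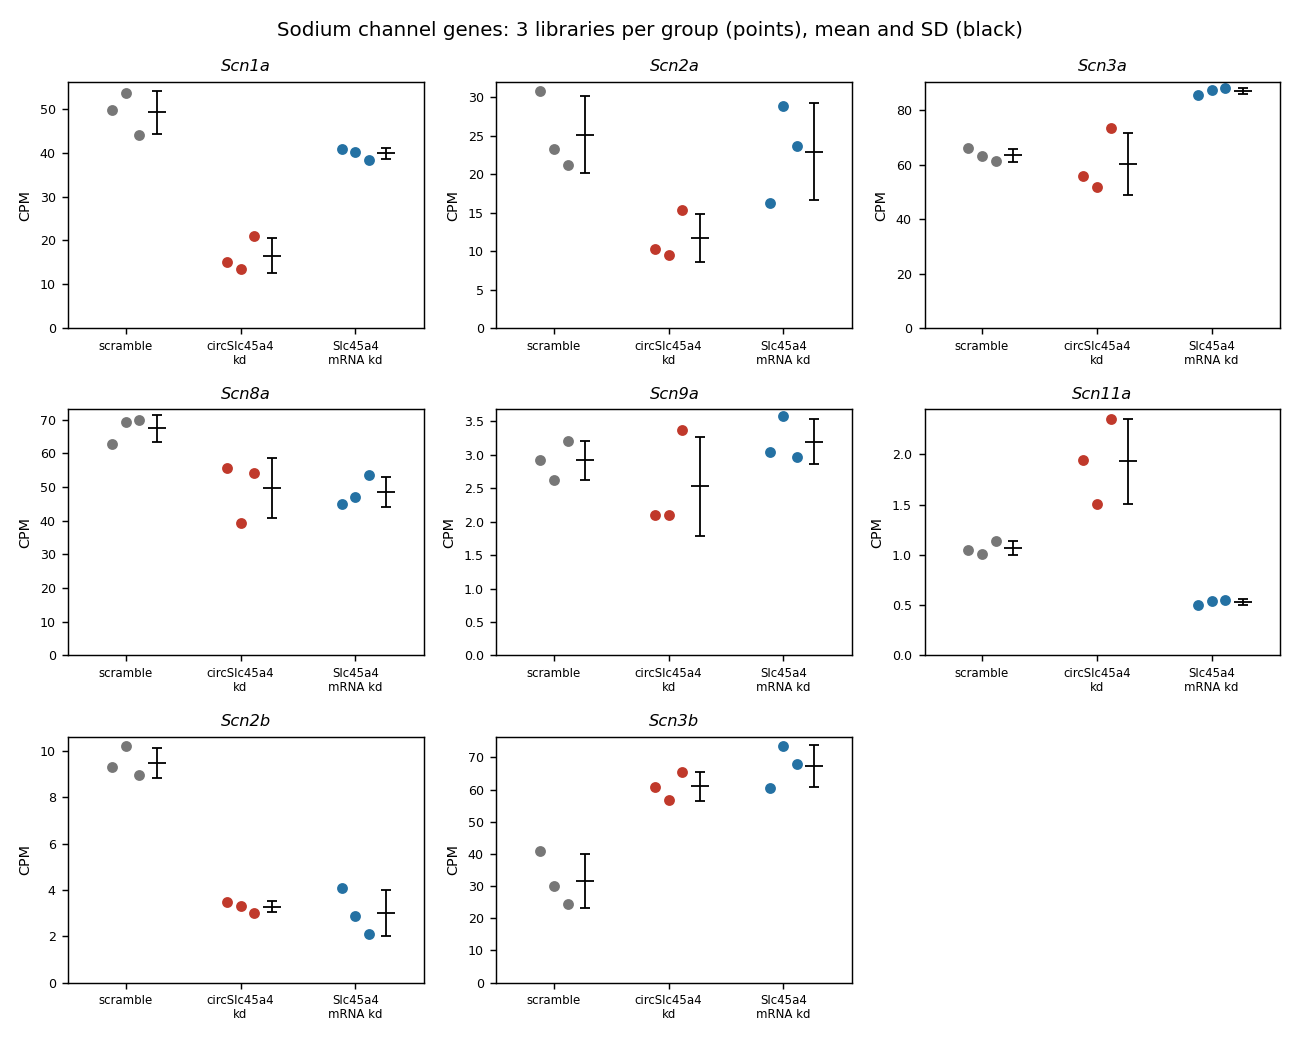
CPM of 8 sodium channel genes in the 3 libraries of scramble (grey), circSlc45a4 knockdown (red) and Slc45a4 mRNA knockdown (blue), each axis from 0, with mean and SD in black. Scn1a and Scn2a are lowest in the red group, Scn2b is low and Scn3b high in both knockdowns.

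The mix of sodium channel transcripts is given as a description, without a test. Of the summed level of the 7 alpha subunits per kb of exon, Scn3a made up 31.6, 29.9 and 30.7% in scramble, 40.8, 44.3 and 44.0% after circSlc45a4 knockdown and 43.9, 42.1 and 42.9% after Slc45a4 mRNA knockdown. Scn1a made up 26.6 ± 1.86%, 13.1 ± 0.883% and 22.0 ± 1.26% (mean ± SD, n = 3 each). The sum itself was 16.8, 16.9 and 16.0 CPM per kb in scramble, 10.9, 9.39 and 13.4 after circSlc45a4 knockdown and 15.7, 16.7 and 16.4 after Slc45a4 mRNA knockdown. The Scn3a share was above scramble in all 6 knockdown libraries, and the total was below scramble in the 3 circSlc45a4 libraries. Scn3b made up 73.4 ± 4.81% of the level of the 2 beta subunits in scramble and 94.1 ± 0.715% and 94.9 ± 1.99% in the knockdowns.

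Among the sodium channel calls, that of Scn8a ended without scramble replicate 2 (-0.41, adjusted p = 0.066) or without scramble replicate 3 (-0.41, adjusted p = 0.0585) or without circSlc45a4 knockdown replicate 2 (-0.30, adjusted p = 0.0653) in the circSlc45a4 knockdown and without scramble replicate 2 (-0.46, adjusted p = 0.0699) or without scramble replicate 3 (-0.45, adjusted p = 0.0542) or without Slc45a4 mRNA knockdown replicate 2 (-0.46, adjusted p = 0.0503) in the Slc45a4 mRNA knockdown. The rise of Scn3a ended without scramble replicate 2 (0.45, adjusted p = 0.0528). The calls of Scn11a against scramble, at 0.86 in the circSlc45a4 knockdown and -0.9996 in the Slc45a4 mRNA knockdown, ended without any one of scramble replicate 1, 2, 3 or circSlc45a4 knockdown replicate 1, 3 or Slc45a4 mRNA knockdown replicate 2, 3 (log2 fold changes of 0.69 to 0.91, adjusted p of 0.0557 to 0.167) for the former and without any one of scramble replicate 1, 2, 3 or circSlc45a4 knockdown replicate 1, 3 or Slc45a4 mRNA knockdown replicate 1, 2, 3 (log2 fold changes of -1.04 to -0.94, adjusted p of 0.0582 to 0.115) for the latter. Both also ended with the replicate block (0.84, adjusted p = 0.0708 and -0.995, adjusted p = 0.0685), with no filter (0.86, adjusted p = 0.117 and -1.003, adjusted p = 0.0971) and with only the 6 libraries compared. The former ended with upper-quartile factors and with DESeq2, and the latter with limma-voom. Scn11a kept its direct difference in all alternatives run. The Xist covariate ended the calls of Scn2a, Scn3b, Scn8a and Scn11a in the circSlc45a4 knockdown and of Scn3a, Scn8a and Scn11a in the Slc45a4 mRNA knockdown. That of Scn8a in the circSlc45a4 knockdown then read -0.24, adjusted p = 0.557. Testing against a minimum change of 1.2-fold ended those of Scn3a, Scn8a and Scn11a.

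HCN channels, which pass the hyperpolarization-activated current, were lower where they were called against scramble. Hcn2 stood at 3.97, 2.20 and 2.10 CPM for scramble, 0.604, 0.492 and 0.894 CPM for the circSlc45a4 knockdown libraries and 1.17, 1.46 and 1.63 CPM for the Slc45a4 mRNA knockdown libraries, and fell in the circSlc45a4 knockdown, with log2 fold change -2.03 ± 0.35 (SE, adjusted p = 9.61e-04). In the Slc45a4 mRNA knockdown all 3 libraries were below scramble, at a log2 fold change of -0.94 that did not pass the threshold (adjusted p = 0.0695). Hcn4, the pacemaker isoform of the heart, stood at 23.4, 31.2 and 28.6 CPM for scramble, 28.5, 26.0 and 25.3 CPM for the circSlc45a4 knockdown libraries and 12.1, 16.7 and 16.5 CPM for the Slc45a4 mRNA knockdown libraries. It fell in the Slc45a4 mRNA knockdown (-0.88 ± 0.14, adjusted p = 9.27e-04) and overlapped scramble in the circSlc45a4 knockdown (-0.06 ± 0.14), with a difference between them of 0.82 ± 0.14 (adjusted p = 0.001). Hcn3 had values of -0.32 and -0.41, neither past the threshold. In the Slc45a4 mRNA knockdown DESeq2 called 3 of the 4 HCN genes, and edgeR and limma-voom 1 each. Over all 17760 genes the calls there were 3877 in DESeq2, 3200 in edgeR and 2982 in limma-voom. The Xist covariate ended the calls of Hcn2 and Hcn4 against scramble. The direct difference of Hcn2 (-1.09 ± 0.35, adjusted p = 0.0366) ended without any one of circSlc45a4 knockdown replicate 1, 2 or Slc45a4 mRNA knockdown replicate 2, 3 (log2 fold changes of -1.07 to -0.91, adjusted p of 0.079 to 0.119), with the replicate block (adjusted p = 0.053), with the Xist covariate and against a minimum change of 1.2-fold.

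Potassium channel alpha subunits of the Kv type set the resting voltage and the shape of the action potential. The M current, which holds neurons back from firing, is carried by Kcnq subunits. Kcnq3 (chromosome 15, 65986387 to 66286642) stood at 126, 126 and 147 CPM for scramble, 191, 171 and 266 CPM for the circSlc45a4 knockdown libraries and 284, 236 and 264 CPM for the Slc45a4 mRNA knockdown libraries, above scramble in every knockdown library. It rose by 0.97 ± 0.14 (adjusted p = 4.40e-04) in the Slc45a4 mRNA knockdown and by 0.65 ± 0.14 (adjusted p = 0.00367) in the circSlc45a4 knockdown.

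Kcnq5, also a neuronal M current subunit, was called in the circSlc45a4 knockdown. It stood at 14.2, 9.95 and 9.82 CPM for scramble, 3.89, 3.14 and 5.68 CPM for the circSlc45a4 knockdown libraries and 10.9, 15.1 and 12.5 CPM for the Slc45a4 mRNA knockdown libraries, and fell in the circSlc45a4 knockdown, at a log2 fold change of -1.41 ± 0.22 (adjusted p = 4.91e-04). In the Slc45a4 mRNA knockdown it overlapped scramble (0.19 ± 0.21), and the gap between the knockdowns was -1.59 ± 0.22 (adjusted p = 2.33e-04). The call of Kcnq3 in the circSlc45a4 knockdown ended with the Xist covariate, at a log2 fold change of 0.65 in both fits.

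**Figure D4:**
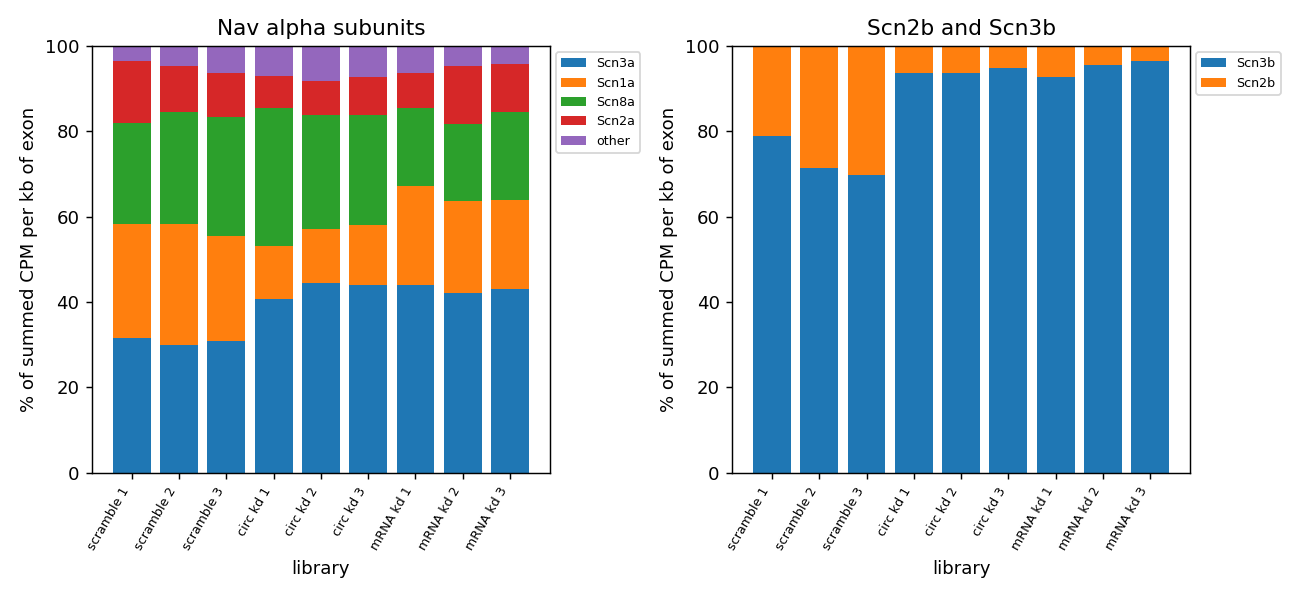
Share of each gene in the summed CPM per kb of exon, per library, for the 7 sodium channel alpha subunits (left; the 3 of lowest share are drawn together as other) and for the beta subunits Scn2b and Scn3b (right); bars add to 100%. The Scn3a share is larger in all 6 knockdown libraries than in scramble, and so is the Scn3b share.

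Of the Kcnh genes, which encode the EAG, ERG and ELK channels, Kcnh5, Kcnh7 and Kcnh8 were called in the circSlc45a4 knockdown. Kcnh1, Kcnh2, Kcnh3 and Kcnh4 were not, and 27.1% of all genes were called there. Kcnh5 (Eag2) rose from 7.94, 9.27 and 7.90 CPM to 21.7, 17.7 and 19.7 CPM, with log2 fold change 1.23 ± 0.13 (SE, adjusted p = 2.28e-05), and read 9.54, 11.004 and 11.4 CPM after Slc45a4 mRNA knockdown (0.35 ± 0.13, adjusted p = 0.0871). Kcnh7 (Erg3) rose from 33.4 ± 2.78 to 55.1 ± 5.15 CPM, by 0.72 ± 0.11 (adjusted p = 2.82e-04), and read -0.05 in the Slc45a4 mRNA knockdown. Both differed between the knockdowns, by 0.89 ± 0.13 (adjusted p = 3.10e-04) and 0.78 ± 0.11 (adjusted p = 2.11e-04). Kcnh8 (Elk1; chromosome 17, 52602709 to 52979194) moved the other way, at 6.07, 4.37 and 5.03 CPM for scramble, 1.68, 1.12 and 1.252 CPM for the circSlc45a4 knockdown libraries and 3.35, 2.62 and 2.66 CPM for the Slc45a4 mRNA knockdown libraries. It fell at a log2 fold change of -1.92 ± 0.24 (adjusted p = 6.97e-05) in the circSlc45a4 knockdown and at a log2 fold change of -0.84 ± 0.23 (adjusted p = 0.0217) in the Slc45a4 mRNA knockdown, and further in the first than in the second (-1.08 ± 0.24, adjusted p = 0.00472). Kcnh1 (Eag1), at 1.43, 1.78 and 2.56 CPM for scramble, 3.20, 2.00 and 3.04 CPM for the circSlc45a4 knockdown libraries and 1.42, 1.24 and 0.499 CPM for the Slc45a4 mRNA knockdown libraries, was called only in the direct comparison, with 1.38 ± 0.37 (adjusted p = 0.0151), and the knockdown groups did not overlap.

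The smaller of these calls ended when single libraries were left out. That of Kcnh8 in the Slc45a4 mRNA knockdown ended without scramble replicate 1 (-0.71, adjusted p = 0.0787) or without Slc45a4 mRNA knockdown replicate 2 (-0.78, adjusted p = 0.0635) or without Slc45a4 mRNA knockdown replicate 3 (-0.79, adjusted p = 0.0682), with the Xist covariate and against a minimum change of 1.2-fold, and that of Kcnh1 ended without circSlc45a4 knockdown replicate 1 (1.27, adjusted p = 0.0574). The promoter of Kcnh8 (chr17:52602459-52602708, plus strand), shown because the gene had the largest fall among Kv alpha subunits, has a GC content of 68.4% and holds 1 GC box.
Kcnh8: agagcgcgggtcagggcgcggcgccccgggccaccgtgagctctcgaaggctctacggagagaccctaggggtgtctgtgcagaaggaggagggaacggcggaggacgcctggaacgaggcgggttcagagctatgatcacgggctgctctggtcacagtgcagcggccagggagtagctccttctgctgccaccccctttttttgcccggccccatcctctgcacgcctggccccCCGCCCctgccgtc

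Shaker-type subunits, which form fast-opening axonal channels, went in several directions. Kcna1 (Kv1.1) stood at 11.1, 8.78 and 8.61 CPM for scramble, 17.8, 18.3 and 22.0 CPM for the circSlc45a4 knockdown libraries and 17.2, 22.6 and 23.0 CPM for the Slc45a4 mRNA knockdown libraries, and both knockdowns lay above scramble. It rose by 1.04 ± 0.15 (adjusted p = 2.44e-04) and 1.15 ± 0.15 (adjusted p = 2.20e-04). Kcna2 (Kv1.2) fell only in the circSlc45a4 knockdown, from 9.40 ± 0.583 to 5.38 ± 0.366 CPM (-0.81 ± 0.15, adjusted p = 0.00129), and the difference from the Slc45a4 mRNA knockdown was -0.65 ± 0.15 (adjusted p = 0.00563). Kcna6 rose in the Slc45a4 mRNA knockdown, from 5.91 ± 0.266 to 10.9 ± 2.59 CPM (0.88 ± 0.20, adjusted p = 0.00886), against -0.04 in the circSlc45a4 knockdown, with a difference of -0.92 ± 0.20 (adjusted p = 0.00451). Kcna3, the member of this group with the highest level per kb, read -0.28 and 0.03 without a call. The Xist covariate ended the call of Kcna6 against scramble (0.51). Kcna6 shares 39.6% of its exon length with the opposite-strand Gm26673, which had 3 counts in all libraries.

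Kv4 subunits carry the A-type current of dendrites. Kcnd3 (Kv4.3) rose in both knockdowns, from 58.5 ± 5.06 to 88.6 ± 13.8 and 79.9 ± 3.20 CPM (0.60 ± 0.11, adjusted p = 0.00116 and 0.45 ± 0.11, adjusted p = 0.0112). Kcnd2 (Kv4.2) rose in the Slc45a4 mRNA knockdown (0.78 ± 0.20, adjusted p = 0.0145) and read 0.37 in the circSlc45a4 knockdown. Kcnd1 differed between the knockdowns only (-0.72 ± 0.23, adjusted p = 0.0345). Of the Kv2 subunits, Kcnb2 was lower in the Slc45a4 mRNA knockdown (-0.42 ± 0.14, adjusted p = 0.0472) and read 0.32 in the circSlc45a4 knockdown, with a difference of 0.74 ± 0.13 (adjusted p = 0.00151). Of the Kv3 subunits, which allow fast repolarization, Kcnc1 and Kcnc2 were not called in any comparison.

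Several of these calls were close to the threshold. The call of Kcnd2 ended without scramble replicate 3 (0.59, adjusted p = 0.0522), and that of Kcnd1 without any one of circSlc45a4 knockdown replicate 1, 2 or Slc45a4 mRNA knockdown replicate 2, 3 (log2 fold changes of -0.69 to -0.62, adjusted p of 0.0841 to 0.111). The call of Kcnb2 against scramble ended without any one of scramble replicate 1, 2, 3 or circSlc45a4 knockdown replicate 3 or Slc45a4 mRNA knockdown replicate 1, 2 (log2 fold changes of -0.48 to -0.32, adjusted p of 0.0567 to 0.149), with the replicate block (-0.43, adjusted p = 0.0548) and with limma-voom (-0.42). The replicate block also ended that of Kcnd1 (-0.73, adjusted p = 0.0523). With the Xist covariate the calls of Kcnd3 in both knockdowns, Kcnd2, Kcnb2 and Kcnd1 ended. A minimum change of 1.2-fold ended the calls of Kcnd3 in the Slc45a4 mRNA knockdown, Kcnd2, Kcnb2 in the Slc45a4 mRNA knockdown and Kcnd1. Of the 24 Kv alpha genes 14 were not called in the circSlc45a4 knockdown and 15 in the Slc45a4 mRNA knockdown. The called shares were 41.7% and 37.5%, against 27.1% and 18.0% of all genes.

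Silent subunits do not form channels alone and alter Kv2 channels when they join them. Kcnv1 (Kv8.1; chromosome 15, 45106284 to 45114920) stood at 3.97, 2.75 and 3.27 CPM for scramble, 9.79, 12.4 and 9.59 CPM for the circSlc45a4 knockdown libraries and 9.52, 10.6 and 8.25 CPM for the Slc45a4 mRNA knockdown libraries, and all 6 knockdown libraries lay above scramble. It rose from 3.33 ± 0.609 to 10.6 ± 1.59 and 9.47 ± 1.19 CPM, by 1.68 ± 0.18 (adjusted p = 2.4e-05) and 1.52 ± 0.18 (adjusted p = 1.08e-04). Kcnf1 (Kv5.1; chromosome 12, 17172100 to 17176888) stood at 2.20, 2.24 and 2.96 CPM for scramble, 7.33, 7.79 and 6.504 CPM for the circSlc45a4 knockdown libraries and 6.70, 4.40 and 3.91 CPM for the Slc45a4 mRNA knockdown libraries, and rose by 1.54 ± 0.23 (adjusted p = 2.66e-04) and 1.01 ± 0.23 (adjusted p = 0.00786). Neither differed between the knockdowns past the threshold (0.16 and 0.53). Kcng1, which has the highest level of the group, read -0.05 and 0.08. Kcng3, at 1.08 CPM or less in every library, was lower in the circSlc45a4 knockdown than in the Slc45a4 mRNA knockdown (-1.91 ± 0.59, adjusted p = 0.029), a call that ended without any one of circSlc45a4 knockdown replicate 1, 2, 3 or Slc45a4 mRNA knockdown replicate 1, 3 (log2 fold changes of -2.08 to -1.502, adjusted p of 0.066 to 0.132), with the replicate block (-1.85, adjusted p = 0.0542), with the Xist covariate, with limma-voom and against a minimum change of 1.2-fold. The Xist covariate ended the calls of Kcnf1 in both knockdowns (1.06 and 0.62).

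Accessory potassium subunits held the change with the smallest p of the whole set. Kcne1l, also named Kcne5, an inhibitory single-pass subunit (chromosome X, 142304752 to 142306294), stood at 6.31, 5.83 and 6.45 CPM for scramble, 23.4, 24.2 and 19.3 CPM for the circSlc45a4 knockdown libraries and 5.36, 5.99 and 7.28 CPM for the Slc45a4 mRNA knockdown libraries. Each circSlc45a4 library was above 19 CPM and no other library was above 7.28 CPM. Kcne1l rose by 1.84 ± 0.15 (adjusted p = 2.78e-06), read 0.003 ± 0.15 in the Slc45a4 mRNA knockdown (adjusted p = 0.993), and differed between the knockdowns by 1.84 ± 0.15 (adjusted p = 4.02e-06). It lies on the X chromosome. Both its calls held with the Xist covariate, whose level went in part with the groups. The part of embryo sex in its change was not tested. Its share of the summed level of the 11 accessory genes was 19.7 ± 0.523% in scramble and 41.0 ± 1.06% in the circSlc45a4 knockdown. Its promoter (chrX:142306199-142306448, minus strand), shown for comparison with those of the genes that fell, has a GC content of 68.0%, 1 GC box and 1 match to the E-box CAGCTG on either strand.
Kcne1l: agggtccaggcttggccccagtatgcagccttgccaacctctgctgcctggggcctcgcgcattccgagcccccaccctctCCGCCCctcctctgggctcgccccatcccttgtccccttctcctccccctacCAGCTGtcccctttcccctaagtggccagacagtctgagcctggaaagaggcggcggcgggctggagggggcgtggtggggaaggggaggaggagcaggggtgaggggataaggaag

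Kcnip3 (calsenilin), a calcium-binding partner of Kv4 channels, rose in the circSlc45a4 knockdown from 22.2 ± 1.16 to 37.8 ± 5.96 CPM (0.77 ± 0.16, adjusted p = 0.00259) and read -0.003 in the Slc45a4 mRNA knockdown, with a difference of 0.77 ± 0.15 (adjusted p = 0.00277). Kcnab3, a cytoplasmic beta subunit of Kv1 channels, rose in the Slc45a4 mRNA knockdown (0.64 ± 0.14, adjusted p = 0.00551) and read 0.27 in the circSlc45a4 knockdown. Another beta subunit, Kcnab1, was under 1 CPM throughout and reached 10 counts only in the 3 circSlc45a4 libraries, so the count minimum itself selected it for a high level there. Its gap between the knockdowns was 1.83 ± 0.55 (adjusted p = 0.0267) and ended without any one of circSlc45a4 knockdown replicate 1, 2, 3 or Slc45a4 mRNA knockdown replicate 1, 2, 3 (log2 fold changes of 1.74 to 1.88, adjusted p of 0.0589 to 0.0964), with no filter, with the Xist covariate and against a minimum change of 1.2-fold. The Xist covariate also ended the call of Kcnab3. Of the 11 accessory genes 8 and 9 were not called in the circSlc45a4 and the Slc45a4 mRNA knockdown. The called shares, 27.3% and 18.2%, were near those of all genes (27.1% and 18.0%).

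Calcium- and sodium-activated potassium channels follow firing with a slow outward current. The small-conductance genes divided the knockdowns. Kcnn1 (SK1) stood at 16.4, 19.1 and 19.4 CPM for scramble, 10.4, 13.0 and 11.8 CPM for the circSlc45a4 knockdown libraries and 21.1, 32.7 and 24.3 CPM for the Slc45a4 mRNA knockdown libraries. All circSlc45a4 libraries lay below and all Slc45a4 mRNA libraries above scramble, with log2 fold changes of -0.65 ± 0.16 (adjusted p = 0.00838) and 0.50 ± 0.16 (adjusted p = 0.0391) and a difference of -1.15 ± 0.16 (adjusted p = 2.04e-04). Kcnn2 (SK2) rose in the Slc45a4 mRNA knockdown from 36.4 ± 3.65 to 55.7 ± 10.6 CPM (0.62 ± 0.15, adjusted p = 0.0108), while the circSlc45a4 libraries overlapped scramble (-0.10), and the knockdowns differed by -0.71 ± 0.15 (adjusted p = 0.00307). Kcnt2 (Slick), a sodium-activated channel, stood at 2.20, 3.86 and 3.06 CPM for scramble, 12.1, 11.2 and 6.26 CPM for the circSlc45a4 knockdown libraries and 3.88, 3.29 and 3.24 CPM for the Slc45a4 mRNA knockdown libraries. It rose in the circSlc45a4 knockdown by 1.68 ± 0.26 (adjusted p = 3.94e-04), read 0.18 in the Slc45a4 mRNA knockdown and differed between them by 1.5003 ± 0.25 (adjusted p = 8.75e-04).

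Kcnma1, the large-conductance channel, was not called in any comparison (0.32 and 0.17 against scramble). The rise of Kcnn1 in the Slc45a4 mRNA knockdown ended without any one of scramble replicate 1, 2, 3 or circSlc45a4 knockdown replicate 2 or Slc45a4 mRNA knockdown replicate 2, 3 (log2 fold changes of 0.31 to 0.55, adjusted p of 0.0558 to 0.165), with limma-voom, with only the 6 libraries compared, with the Xist covariate and against a minimum change of 1.2-fold. That of Kcnn2 ended without scramble replicate 2 (0.54, adjusted p = 0.066), with the Xist covariate and against the same minimum change. The covariate further ended the calls of Kcnt2 and Kcnn1 in the circSlc45a4 knockdown.

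Inward rectifiers hold the membrane near the potassium equilibrium. Kcnj10 (Kir4.1), the glial potassium channel (chromosome 1, 172341210 to 172374085), stood at 9.32, 7.36 and 6.92 CPM for scramble, 21.8, 26.9 and 31.1 CPM for the circSlc45a4 knockdown libraries and 11.5, 11.1 and 15.7 CPM for the Slc45a4 mRNA knockdown libraries. The order of the groups was without overlap, with scramble lowest and the circSlc45a4 knockdown highest. It rose from 7.87 ± 1.28 to 26.6 ± 4.70 and 12.8 ± 2.56 CPM, by 1.77 ± 0.18 (adjusted p = 1.43e-05) and 0.71 ± 0.18 (adjusted p = 0.0148), and the gap between the knockdowns was 1.06 ± 0.17 (adjusted p = 6.54e-04). The summed level of 4 oligodendrocyte precursor markers was 0.583 to 1.204 CPM in scramble, 1.79 to 2.46 after circSlc45a4 knockdown and 1.19 to 2.76 after Slc45a4 mRNA knockdown, with Sox10 at 0 counts in every library but 1, and that of the apical progenitor genes is given above. Their part in the change of Kcnj10 was not tested.

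Kcnj3 (Kir3.1), the G-protein-gated channel subunit, stood at 17.1, 10.9 and 12.5 CPM for scramble, 23.7, 31.0 and 33.1 CPM for the circSlc45a4 knockdown libraries and 20.5, 24.7 and 24.9 CPM for the Slc45a4 mRNA knockdown libraries, with scramble below both knockdowns. It rose by 1.12 ± 0.17 (adjusted p = 3.37e-04) and 0.80 ± 0.17 (adjusted p = 0.00576). Of its exon length 31.1% is shared with the opposite-strand lincRNA Gm26794, and the strand setting of the counts is not given, so reads of the pair may not be told apart. Kcnj11, the leading potassium channel gene by level, ranged widely within scramble (78.7, 59.2 and 50.4 CPM) and was not called (0.20 and 0.19). The smaller rise of Kcnj10, in the Slc45a4 mRNA knockdown, ended without scramble replicate 2 (0.66, adjusted p = 0.0702) or without scramble replicate 3 (0.62, adjusted p = 0.0578) or without Slc45a4 mRNA knockdown replicate 3 (0.53, adjusted p = 0.0642) and against a minimum change of 1.2-fold, and that of Kcnj3 in the same knockdown ended with the Xist covariate.

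Two-pore domain channels carry the background potassium current. In the circSlc45a4 knockdown edgeR, limma-voom and DESeq2 each called 0 of the 6, and 1 had an unadjusted p under 0.05 in edgeR. Over all genes 27.1% were called there by edgeR, and a share over 6 genes is coarse. Between the knockdowns DESeq2 called 1 of the 6, and edgeR and limma-voom 0. Kcnk2 (TREK-1) rose in the Slc45a4 mRNA knockdown, from 12.8, 10.8 and 11.1 CPM to 16.4, 21.4 and 24.6 CPM (0.85 ± 0.16, adjusted p = 0.00296), and read 0.41 ± 0.16 in the circSlc45a4 knockdown. It shares 12.2% of its exon length with the opposite-strand A430027H14Rik. Kcnk10 (TREK-2), the most highly read of the 6, stood at 71.7, 64.7 and 57.4 CPM in scramble, 64.3, 68.1 and 70.9 CPM and 60.5, 60.3 and 59.9 CPM in the knockdowns, with both knockdowns overlapping scramble and log2 fold changes of 0.07 and -0.10.

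**Figure D5:**
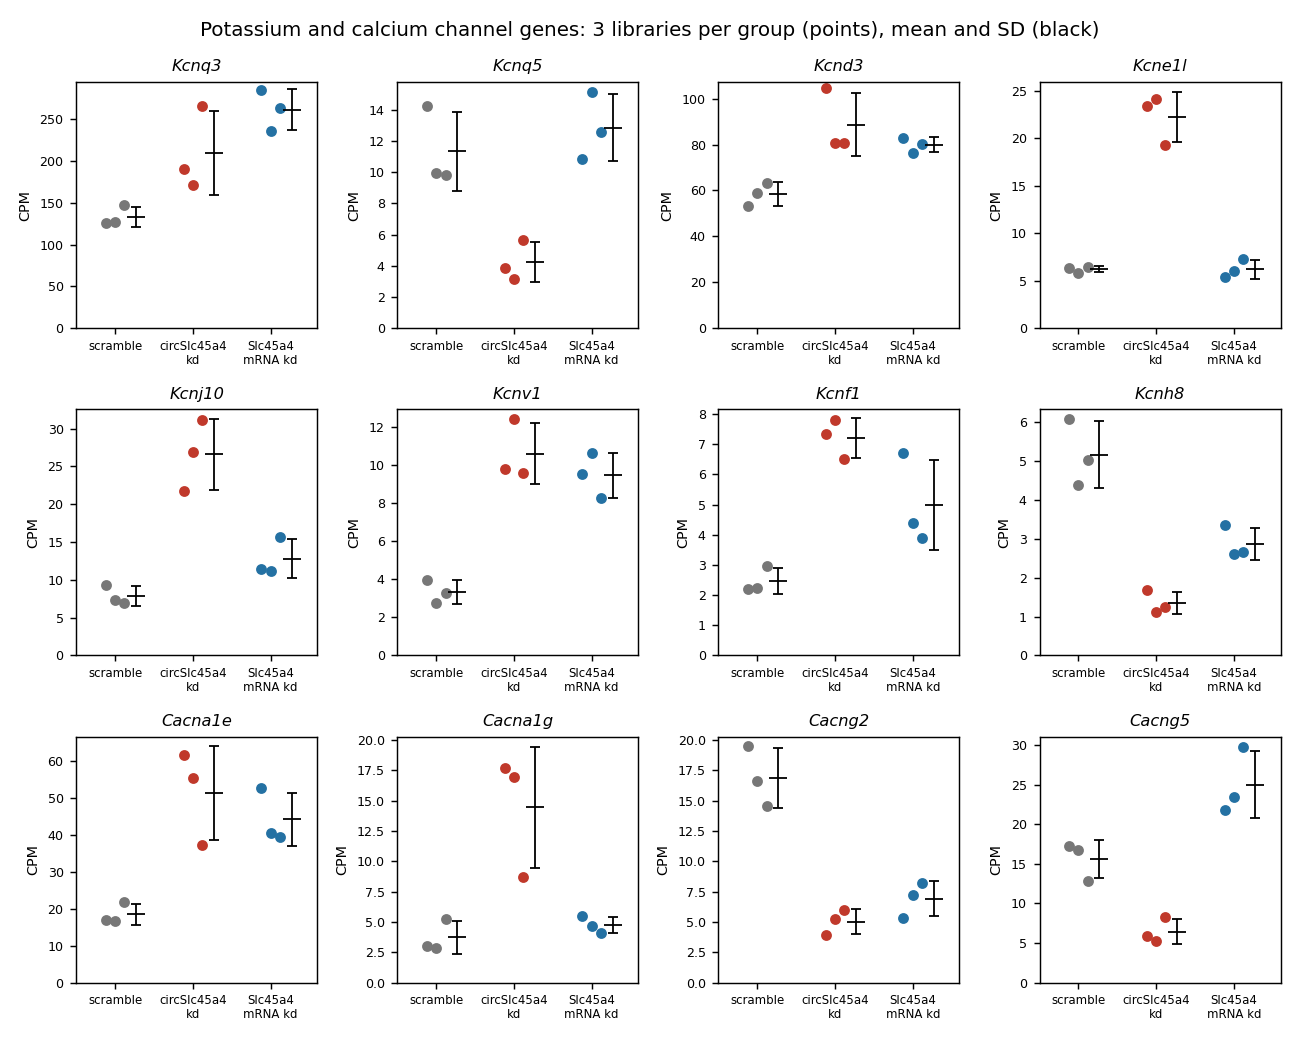
CPM of 12 potassium and calcium channel genes in the 3 libraries of each group (grey scramble, red circSlc45a4 knockdown, blue Slc45a4 mRNA knockdown), each axis from 0, with mean and SD in black. Kcne1l is raised only in the red group, Kcnv1, Kcnf1 and Cacna1e in both knockdowns, and Cacng5 lies below scramble in red and above it in blue.

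Calcium channel alpha1 subunits form the pore. Cacna1e (Cav2.3, the R-type channel; chromosome 1, 154390731 to 154884501) stood at 17.1, 16.7 and 21.8 CPM for scramble, 61.6, 55.3 and 37.1 CPM for the circSlc45a4 knockdown libraries and 52.5, 40.4 and 39.4 CPM for the Slc45a4 mRNA knockdown libraries. All 6 knockdown libraries lay above scramble, and it rose from 18.5 ± 2.85 to 51.3 ± 12.7 and 44.1 ± 7.29 CPM, by 1.47 ± 0.18 (adjusted p = 6.97e-05) and 1.248 ± 0.18 (adjusted p = 4.52e-04). Cacna1g (Cav3.1, a T-type channel; chromosome 11, 94408391 to 94474198) stood at 3.01, 2.88 and 5.28 CPM for scramble, 17.7, 16.9 and 8.74 CPM for the circSlc45a4 knockdown libraries and 5.47, 4.69 and 4.10 CPM for the Slc45a4 mRNA knockdown libraries. It rose in the circSlc45a4 knockdown by 1.94 ± 0.28 (adjusted p = 2.58e-04), read 0.34 in the Slc45a4 mRNA knockdown, and differed between them by 1.60 ± 0.27 (adjusted p = 9.80e-04). Replicate 3 of the circSlc45a4 knockdown was the lowest of its group for Cacna1e, Cacna1g and Kcnt2, and also for the summed level of 5 Cajal-Retzius markers (249.6, 140.2 and 74.0 CPM in replicates 1, 2 and 3, against 21.8 to 57.2 CPM in scramble and 13.8 to 23.4 in the Slc45a4 mRNA knockdown). Nearly all of that sum was Reln, and Trp73 and Lhx5 were under 0.8 CPM in every library. Replicate 3 of the circSlc45a4 knockdown was also the lowest of its group for other raised genes, such as Kcne1l, Kcnv1 and Kcnf1. It was the highest for others, such as Kcnj10, Kcnj3 and Kcna1. The part of any cell type in the values of Cacna1e, Cacna1g and Kcnt2 was not tested.

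The T-type gene with the highest level, Cacna1h (Cav3.2), fell in both knockdowns, from 127 ± 8.35 to 85.9 ± 4.67 and 81.0 ± 19.1 CPM (-0.57 ± 0.14, adjusted p = 0.00806 and -0.65 ± 0.14, adjusted p = 0.00564). Its share of the summed level of the 9 alpha1 genes per kb went from 49.2 ± 1.80% in scramble to 37.3 ± 0.609% and 37.2 ± 3.51%. Cacna1b (Cav2.2), the N-type channel of presynaptic terminals and migrating neurons, also fell in both (-0.47 ± 0.11, adjusted p = 0.00546 and -0.37 ± 0.11, adjusted p = 0.0296). Cacna1a and Cacna1d, the P/Q-type and an L-type channel, read between -0.19 and 0.11 against scramble, without a call, and the skeletal muscle channel Cacna1s was near 1 CPM or below. In the direct comparison Cacna1g was the only alpha1 gene of 9 that was called (11.1%), against 26.1% of all genes.

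The call of Cacna1b in the Slc45a4 mRNA knockdown ended without scramble replicate 1 (-0.33, adjusted p = 0.0968) or without scramble replicate 2 (-0.35, adjusted p = 0.106) or without Slc45a4 mRNA knockdown replicate 1 (-0.25, adjusted p = 0.0781), and both its calls ended against a minimum change of 1.2-fold. The Xist covariate ended the calls of Cacna1b and Cacna1h in both knockdowns (-0.28 and -0.23 for Cacna1b, -0.23 and -0.41 for Cacna1h) and that of Cacna1g (1.69).

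Auxiliary alpha2delta and beta subunits carry the pore to the membrane. Cacna2d1, the binding protein of gabapentin, rose in the circSlc45a4 knockdown from 145 ± 15.9 to 218 ± 17.4 CPM (0.59 ± 0.10, adjusted p = 6.54e-04). Its smaller rise in the Slc45a4 mRNA knockdown, to 185 ± 14.4 CPM (0.35 ± 0.10, adjusted p = 0.0232), ended without scramble replicate 2 (0.33, adjusted p = 0.0937) or without scramble replicate 3 (0.29, adjusted p = 0.0974) or without Slc45a4 mRNA knockdown replicate 3 (0.32, adjusted p = 0.0731), with the Xist covariate and against a minimum change of 1.2-fold. Cacna2d3 stood at 2.68, 1.39 and 1.27 CPM for scramble, 0.917, 0.711 and 0.693 CPM for the circSlc45a4 knockdown libraries and 1.98, 2.54 and 3.16 CPM for the Slc45a4 mRNA knockdown libraries. It fell in the circSlc45a4 knockdown at a log2 fold change of -1.17 ± 0.35 (adjusted p = 0.0233) and differed between the knockdowns at a log2 fold change of -1.72 ± 0.34 (adjusted p = 0.00262). Against scramble that call ended without scramble replicate 1 (-0.78, adjusted p = 0.113) or without circSlc45a4 knockdown replicate 2 (-1.12, adjusted p = 0.0707) or without circSlc45a4 knockdown replicate 3 (-1.10, adjusted p = 0.0673), with the Xist covariate, with limma-voom and against a minimum change of 1.2-fold. Cacnb3, the gene with the highest level of the whole set, stood at 197, 204 and 180.2 CPM for scramble, 203, 181 and 160.1 CPM for the circSlc45a4 knockdown libraries and 104, 147 and 141 CPM for the Slc45a4 mRNA knockdown libraries. It fell in the Slc45a4 mRNA knockdown only (-0.57 ± 0.12, adjusted p = 0.00645), read -0.09 in the circSlc45a4 knockdown, and differed between them at a log2 fold change of 0.48 ± 0.12 (adjusted p = 0.0125). Cacnb1 differed only between the knockdowns, from 45.04 ± 9.42 CPM in the Slc45a4 mRNA knockdown to 70.2 ± 11.6 CPM in the circSlc45a4 knockdown (0.64 ± 0.15, adjusted p = 0.00659). The direct difference of Cacnb3 ended without circSlc45a4 knockdown replicate 1 (0.40, adjusted p = 0.065) and against a minimum change of 1.2-fold, and its call against scramble ended with the Xist covariate and a minimum change of 1.2-fold. The summed level of the 4 beta subunits was 63.3 ± 3.99 CPM per kb in scramble, 62.9 ± 7.76 after circSlc45a4 knockdown and 45.1 ± 7.98 after Slc45a4 mRNA knockdown.

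The gamma family includes the TARPs, which carry AMPA receptors to the synapse. Cacng2 (stargazin; chromosome 15, 77991748 to 78120028) stood at 19.5, 16.7 and 14.5 CPM for scramble, 3.89, 5.25 and 5.99 CPM for the circSlc45a4 knockdown libraries and 5.36, 7.20 and 8.25 CPM for the Slc45a4 mRNA knockdown libraries. All knockdown libraries lay below scramble, and it fell from 16.9 ± 2.49 to 5.04 ± 1.06 and 6.94 ± 1.47 CPM, with log2 fold changes of -1.74 ± 0.20 (adjusted p = 3.61e-05) and -1.28 ± 0.19 (adjusted p = 6.48e-04). Cacng5 (chromosome 11, 107874605 to 107915055) stood at 17.2, 16.8 and 12.8 CPM for scramble, 5.86, 5.25 and 8.27 CPM for the circSlc45a4 knockdown libraries and 21.8, 23.5 and 29.8 CPM for the Slc45a4 mRNA knockdown libraries, below scramble in each circSlc45a4 library and above it in each Slc45a4 mRNA library. Its log2 fold changes were -1.26 ± 0.19 (adjusted p = 2.76e-04) and 0.68 ± 0.18 (adjusted p = 0.0183), and the difference of -1.95 ± 0.19 (adjusted p = 1.54e-05) had the second smallest p among the channel genes in the direct comparison. The leading members by level, Cacng7 and Cacng4, read between -0.29 and -0.03 in both knockdowns without a call. Cacng3, at 1.34 CPM or less, was lower in the circSlc45a4 than in the Slc45a4 mRNA knockdown (-2.20 ± 0.66, adjusted p = 0.026).

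The rise of Cacng5 in the Slc45a4 mRNA knockdown ended without scramble replicate 3 (0.56, adjusted p = 0.0721) or without Slc45a4 mRNA knockdown replicate 3 (0.54, adjusted p = 0.0797) and against a minimum change of 1.2-fold, and its fall in the circSlc45a4 knockdown ended with the Xist covariate (-0.92), as did the fall of Cacng2 in the Slc45a4 mRNA knockdown (-1.01). The difference of Cacng3 ended without any one of circSlc45a4 knockdown replicate 1, 2, 3 or Slc45a4 mRNA knockdown replicate 1, 2 (log2 fold changes of -2.42 to -1.63, adjusted p of 0.0557 to 0.133), with limma-voom and against a minimum change of 1.2-fold. The promoter of Cacng2 (chr15:78119281-78119530, minus strand), shown because the gene fell in both knockdowns, has a GC content of 62.0% and 1 match to the E-box CAGCTG on either strand. It precedes the RefSeq start but lies inside the GENCODE gene model, so it is not upstream of that model.
Cacng2: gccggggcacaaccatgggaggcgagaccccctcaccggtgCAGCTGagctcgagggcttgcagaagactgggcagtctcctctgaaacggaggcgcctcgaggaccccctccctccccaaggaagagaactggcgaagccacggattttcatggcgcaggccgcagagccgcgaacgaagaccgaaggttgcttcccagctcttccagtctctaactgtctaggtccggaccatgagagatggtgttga

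Further calls fall outside the naming rule, as do those of Kcnq3 and Scn11a in the circSlc45a4 knockdown and of Cacna2d1, Cacng5 and Kcnn1 in the Slc45a4 mRNA knockdown, and were named after their values were seen. Each of those that follow ended when single libraries were left out. Cacna1c (Cav1.2, an L-type channel) was higher in both knockdowns (0.61 ± 0.16 and 0.62 ± 0.16), and in the Slc45a4 mRNA knockdown its libraries overlapped scramble. The first call ended without scramble replicate 2 (0.59, adjusted p = 0.0541) or without scramble replicate 3 (0.47, adjusted p = 0.0601) or without circSlc45a4 knockdown replicate 3 (0.50, adjusted p = 0.0575), and the second without any one of scramble replicate 2, 3 or Slc45a4 mRNA knockdown replicate 2, 3 (log2 fold changes of 0.47 to 0.59, adjusted p of 0.0572 to 0.0796). Kcnn3 (SK3, a calcium-activated channel) was higher in the circSlc45a4 knockdown than in either other group, at 0.41 ± 0.14 against scramble and 0.45 ± 0.14 against the Slc45a4 mRNA knockdown. The call against scramble ended without any one of scramble replicate 2, 3 or circSlc45a4 knockdown replicate 1, 2, 3 (log2 fold changes of 0.32 to 0.46, adjusted p of 0.0651 to 0.161), and the direct one without circSlc45a4 knockdown replicate 2 (0.49, adjusted p = 0.0586) or without circSlc45a4 knockdown replicate 3 (0.36, adjusted p = 0.115) or without Slc45a4 mRNA knockdown replicate 1 (0.29, adjusted p = 0.0785). Kcnip1, a partner of Kv4 channels, was higher in the Slc45a4 mRNA knockdown (0.76 ± 0.23), and that call ended without any one of scramble replicate 1, 2 or Slc45a4 mRNA knockdown replicate 2, 3 (log2 fold changes of 0.63 to 0.73, adjusted p of 0.0879 to 0.127). The Xist covariate and a minimum change of 1.2-fold each ended the calls of Cacna1c, of Kcnip1 and of Kcnn3 against scramble, with adjusted p of 0.0985 and 0.0829 for Cacna1c, 0.197 for Kcnip1 and 0.135 for Kcnn3 with the covariate, where Kcnn3 read 0.65. The call of Kcnn3 against scramble ended with the replicate block too (0.40, adjusted p = 0.071). Upper-quartile factors ended both calls of Kcnn3, and the minimum change also its direct one.

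The other calls of this kind were in genes of few counts. Cacng1, with 61 counts over all libraries, was lowest in the circSlc45a4 knockdown, at -2.97 ± 0.89 against scramble and -2.57 ± 0.89 against the Slc45a4 mRNA knockdown. It reached 10 counts only in scramble replicate 2 and Slc45a4 mRNA knockdown replicates 2 and 3. The count minimum itself thus selected it for a higher level outside the circSlc45a4 knockdown. The first call ended without any one of scramble replicate 1, 2 or circSlc45a4 knockdown replicate 1, 3 (log2 fold changes of -3.05 to -2.39, adjusted p of 0.0651 to 0.0904), and the second without any one of scramble replicate 1, 2, 3 or circSlc45a4 knockdown replicate 1, 2, 3 or Slc45a4 mRNA knockdown replicate 2, 3 (log2 fold changes of -3.32 to -1.98, adjusted p of 0.0581 to 0.155). Kcng3, a silent subunit with 163 counts, read -1.99 ± 0.59 in the circSlc45a4 knockdown against scramble, and the call ended without any one of scramble replicate 2, 3 or circSlc45a4 knockdown replicate 1, 2, 3 (log2 fold changes of -2.18 to -1.58, adjusted p of 0.0525 to 0.119). Kcnab1, with 103 counts, read 1.63 ± 0.56 there, and the call ended without any one of scramble replicate 1, 3 or circSlc45a4 knockdown replicate 1, 2, 3 or Slc45a4 mRNA knockdown replicate 1, 2, 3 (log2 fold changes of 1.18 to 1.66, adjusted p of 0.0668 to 0.191). Kcnh4, with 280 counts, differed between the knockdowns (-1.27 ± 0.44), and the call ended without any one of scramble replicate 3 or circSlc45a4 knockdown replicate 1, 2, 3 or Slc45a4 mRNA knockdown replicate 1, 2, 3 (log2 fold changes of -1.36 to -1.141, adjusted p of 0.0537 to 0.135). The Xist covariate ended these calls as well, with adjusted p of 0.411 and 0.103 for Cacng1, 0.332 for Kcng3, 0.41 for Kcnab1 and 0.0672 for Kcnh4. The replicate block ended the direct call of Cacng1 (-2.59, adjusted p = 0.0737), that of Kcnab1 (1.68, adjusted p = 0.0666) and that of Kcnh4 (-1.252, adjusted p = 0.0679), and so did a minimum change of 1.2-fold. The direct call of Cacng1 further ended with no filter and with limma-voom, that of Kcnh4 with RLE size factors, and that of Kcnab1 with no filter, upper-quartile factors, DESeq2 and only the 6 libraries compared.

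Over the RefSeq table, 66 of the 94 genes had a promoter, in 96 entries. The GC box was present in 44.8% of these and in 32.7% of all 32851 entries of the same length, CAGCTG in 25.0% and 13.0%, CAGATG in 14.6% and 14.4%, and TATAAA in 3.12% and 12.4%. The REST site part TTCAGCACC was found in 0 of the 96 and in 0.301% of all. The median GC content was 60.6% against 52.4%. These are matches of letters in a window and not sites shown to be bound.

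Partners and neighbours of the channels, which are not counted among the 94, were read from a list of 55 genes, 51 of them tested. In the circSlc45a4 knockdown 17 were higher and 7 lower, in the Slc45a4 mRNA knockdown 5 higher and 7 lower, and between the knockdowns 13 higher and 5 lower. Over all genes tested 27.1%, 18.0% and 26.1% were called in either direction, so the 12 of 51 called in the Slc45a4 mRNA knockdown are near the share of all genes. Their median log2 fold changes were 0.03, -0.09 and 0.14. Of the 7 calcium channel modulators listed, 5 were tested, and 2 were called. Rem2, a small G protein that inhibits calcium channels, rose from 7.12 ± 1.05 to 11.2 ± 0.421 and 23.7 ± 2.00 CPM (0.66 ± 0.13, adjusted p = 0.0026 and 1.74 ± 0.13, adjusted p = 4.95e-06), and rose further in the Slc45a4 mRNA knockdown than in the circSlc45a4 knockdown (-1.08 ± 0.13, adjusted p = 7.54e-05). Stac2, an adaptor that slows the inactivation of L-type channels, stood at 10.9, 7.91 and 7.32 CPM for scramble, 18.9, 17.9 and 16.2 CPM for the circSlc45a4 knockdown libraries and 1.28, 2.05 and 1.52 CPM for the Slc45a4 mRNA knockdown libraries. It rose in the first knockdown (1.03 ± 0.18, adjusted p = 9.57e-04) and fell in the second (-2.41 ± 0.20, adjusted p = 8.69e-06).

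Of the Kv4, Kv2 and HCN partners 2 of 4 were higher in the circSlc45a4 knockdown, Dpp10 (2.62 ± 0.40, adjusted p = 3.41e-04), which speeds Kv4 channels, and Amigo1 (0.46 ± 0.10, adjusted p = 0.00372), a partner of Kv2 channels. Sodium channel partners had 2 of 9 lower there, Fgf14 (-1.202 ± 0.22, adjusted p = 0.00136) and Ank2 (-0.50 ± 0.13, adjusted p = 0.0116), and 1 higher and 1 lower in the Slc45a4 mRNA knockdown, Ank3 (0.31 ± 0.10, adjusted p = 0.0471), the organizer of the axon initial segment, and Fgf11 (-0.61 ± 0.16, adjusted p = 0.0171). Of the 6 sodium-potassium pump genes 3 rose and 1 fell after circSlc45a4 knockdown, the latter being the beta subunit Atp1b1 (-0.83 ± 0.15, adjusted p = 0.00149). Over all genes 27.1% were called in the circSlc45a4 and 18.0% in the Slc45a4 mRNA knockdown. The sodium channel partners were near these shares, and each of these lists is short. Rest, the repressor named above, and its cofactor Rcor1 rose in the circSlc45a4 knockdown (0.69 ± 0.16, adjusted p = 0.00575 and 0.35 ± 0.08, adjusted p = 0.00499), and Rest read 0.01 in the Slc45a4 mRNA knockdown, with a difference of 0.68 ± 0.16 (adjusted p = 0.00673). Abcc8, the sulfonylurea receptor that joins Kcnj11, stood at 149.7 ± 11.9 CPM in scramble and was not called (-0.28 and -0.10).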

How the data were processed

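RNA was measured in 9 polyA selected libraries (3 groups of 3). The authors deposited whole read counts per gene, without normalization. The submitters' processing notes list STAR 2.4.2a, bcl2fastq 2.17.1.14, mm10 and DESeq2, without their roles. The counting program, annotation release and strand setting are named in none of the sources used here. Symbols and exon lengths came from GENCODE release M21 (GRCm38), for 53274 of 53379 gene IDs. Genes were filtered with filterByExpr (minimum count 10), scaled by TMM and tested with the quasi-likelihood F test of edgeR 4.0.16 over 17760 genes, with 1 term per group, 6 residual degrees of freedom and Benjamini-Hochberg adjustment. All 94 channel genes passed this filter, and their low-count members are there because at least 3 libraries read them. The common biological coefficient of variation was 13.9%. SE is the log2 fold change over the square root of F. The test was checked on simulated counts. A count of 0 allows up to 3 counts, or 0.143 CPM in the library of lowest depth, which covers counting error only. Exon length is the union of annotated exons. Promoter sequences are from RefSeq (GRCm38.p6).

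The genes, families and lists were chosen with earlier results of these data known. The rule names, per comparison, members called with groups that do not overlap, all if 30 or fewer and otherwise the 15 of smallest p in each direction. Values in every library go to at most 6 per direction, beside a few named after their values were seen to complete a subfamily. From the list of partners up to 4 called genes per group are named. A few genes that the rule covers are not reported here, though counts and sums over families hold them. Alternatives were RLE and upper-quartile factors, no filter, 1 CPM in 3 libraries, limma-voom 3.58.1, DESeq2 1.42.0, a minimum change of 1.2-fold, only the 6 libraries compared, a replicate block, an Xist covariate and leaving out each library.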

Additional observations from a re-analysis of the deposited data

Results flagged for a closer look

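For 4 channel genes every library of one knockdown lay above all scramble libraries and every library of the other below them, and the knockdowns differed in the direct test of edgeR. The log2 difference of the circSlc45a4 from the Slc45a4 mRNA knockdown was -1.95 ± 0.19 (adjusted p = 1.54e-05) for Cacng5 and -1.15 ± 0.16 (adjusted p = 2.04e-04) for Kcnn1. It was 0.74 ± 0.13 (adjusted p = 0.00151) for Kcnb2 and 1.86 ± 0.31 (adjusted p = 8.84e-04) for Scn11a. Of the 8 changes against scramble behind them, that of Kcnb2 in the circSlc45a4 knockdown (0.32, adjusted p = 0.0976) did not pass the threshold.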

How the results depend on the processing

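No channel gene that was called changed direction under any alternative. Of 38 calls in the circSlc45a4 knockdown 16 held in all alternatives run and 11 more ended only with the Xist covariate, of 32 after Slc45a4 mRNA knockdown 7 and 8, and of 33 in the direct comparison 22 and 0. With the Xist covariate the circSlc45a4 knockdown had 10 higher and 6 lower, and the Slc45a4 mRNA knockdown 8 and 1, while calls over all genes went from 4814 to 1165 and from 3200 to 703. Scramble was low in Xist throughout, so its level and the group cannot be fully told apart. Against a minimum change of 1.2-fold 10 were higher and 5 lower in the Slc45a4 mRNA knockdown, and 11 lower in the direct comparison. Calls over all genes in these comparisons went from 3200 to 1197 and from 4632 to 2073. Without 1 library, the circSlc45a4 knockdown had 16 to 23 higher and 13 to 21 lower, the Slc45a4 mRNA knockdown 13 (without scramble replicate 2) to 22 higher and 7 (without scramble replicate 1 or 2) to 11 lower, and the direct comparison 13 to 16 higher and 11 (without circSlc45a4 knockdown replicate 2) to 18 lower. Calls over all genes without 1 library were 3386 to 5548, 1760 to 3083 and 3059 to 4610 in the same order. Counts of channel genes under the other scalings, filters and tests stayed within 1.5 times.

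The replicate block gave 18 higher and 18 lower, 21 and 9, and 16 and 14 in the same order. Over all genes it called 4412, 2713 and 4189. The replicate numbers were not shown to pair the libraries. Deviations of same-numbered libraries from their group means correlated at -0.14 to 0.12 over genes, others at -0.12 to 0.18, and 1 of 9 libraries correlated best with its own number in both other groups. Genes under about 1 CPM, such as Cacng1, Kcns3 and Kcnj14, rest on few counts per library, and a difference may not be detectable there at this depth.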

Other observations

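Of the 138 coding genes with channel symbols 44 stayed below 10 counts in 3 libraries, and 11 of them had 0 counts in all 9. Just outside the minimum were Kcnj6, Kcnk13 and Kcnh6, with 10 counts in 2 libraries and totals of 64, 54 and 41 counts, and just inside were Cacng1, with 61 counts, and Kcnab1, with 103. Kcnq1, the cardiac relative of the M current genes, had 6 counts in all libraries together. Kcnj8, a marker of pericytes, had 21.

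Among the antisense RNAs left out by the rule, Kcnq1ot1, the long RNA of the imprinted Kcnq1 region, stood at 5.98, 7.74 and 6.98 CPM for scramble, 4.32, 4.05 and 4.83 CPM for the circSlc45a4 knockdown libraries and 9.43, 6.37 and 7.56 CPM for the Slc45a4 mRNA knockdown libraries. Its log2 fold change in the circSlc45a4 knockdown was -0.65 ± 0.18 (adjusted p = 0.0161) against scramble and -0.82 ± 0.18 (adjusted p = 0.00451) against the Slc45a4 mRNA knockdown. Kcnmb4os2, which shares exon sequence with Kcnmb4 on the opposite strand, had 467 counts in all libraries, and its log2 fold changes against scramble were -0.49 and 0.19, neither called.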
